A study of Mus musculus with 11 samples.

Results

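Among the 248 genes on the inflammation panel, 10 that mark macrophages and other antigen-presenting cells are described here. They are TYROBP, C1QA, C1QB, ITGB2, MRC1, TREM2, CD163, CD86, H2-EB1 and H2-EA-PS, spelled in capitals as in the deposited tables. They were chosen by symbol and not by a rule on their values, though earlier results of these data were known. All 10 had a row in both tables. The paper proposes that macrophages enter the treated cornea, and these are genes that such an influx could raise, beside 16 others on the panel given further on.

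The mice were female C57BL/6 mice held for 5 days under desiccating stress, a model of dry eye in which scopolamine in the drinking water lowers tear secretion and a draft of dry air dries the eye. During these days they received eye drops of vehicle (PBS, 3 samples), of 10 uM pan (4 samples), a small molecule agonist of all Trk neurotrophin receptors, or of 10 uM C1 (4 samples), an agonist of TrkC. All 3 groups were under stress, so no unstressed cornea is among them. The labels give the tissue as cornea and the cells as corneal epithelium, and the paper describes lysates of corneal epithelium, so how much stroma the RNA holds is not known. The values below speak for the RNA that was taken, not for the stroma. The age is labelled 3 months in every sample. A second age field differs: vehicle and the first 3 pan replicates have 2 to 3 months there, while pan replicate 4 and all C1 samples have 22 to 24 months. The methods give a range of young ages, in weeks, for all mice. That range lies below the 3 months of the first field and goes against the older label of the second. Age is therefore used below only as a label.

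Macrophages of the cornea lie mostly in the stroma, and antigen-presenting cells with MHC class II also sit among the epithelial cells. TYROBP is the adaptor through which receptors such as TREM2 signal. C1QA and C1QB are chains of C1q, the recognition molecule of the classical complement pathway, which tissue macrophages make in quantity. MRC1 is the mannose receptor and CD163 the receptor for haptoglobin and haemoglobin, and both mark resident or alternatively activated macrophages. ITGB2 is the beta-2 chain of the leukocyte integrins, and CD86 is a co-stimulatory ligand for T cells. H2-EB1 is the beta chain of the class II molecule I-E. H2-EA-PS is its alpha chain gene, which RefSeq classes as a transcribed pseudogene. Mice of the C57BL/6 strain do not make the E alpha chain, so I-E does not reach the cell surface in them.

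Sequence upstream of the start was taken from RefSeq (build GRCm38.p6) to show what letters lie in front of these genes. Of the 10 genes, 5 had a promoter entry, and the 3 shown are those of the 5 that were above background in every sample. Each run holds the 250 bases before the start site, read 5′ to 3′ on the gene's strand. Capitals mark the letters searched for, on both strands and in all 3 sequences. These are CTAGCAAC, the letters at the start of the X box of H2-EB1, and ATTGG, the core of the Y box, which are elements known from class II promoters, and AGGAAG, a core bound by PU.1, a transcription factor of macrophages. The letters were chosen with the sequences in view.
H2-EB1, chr17:34305617-34305866, plus strand: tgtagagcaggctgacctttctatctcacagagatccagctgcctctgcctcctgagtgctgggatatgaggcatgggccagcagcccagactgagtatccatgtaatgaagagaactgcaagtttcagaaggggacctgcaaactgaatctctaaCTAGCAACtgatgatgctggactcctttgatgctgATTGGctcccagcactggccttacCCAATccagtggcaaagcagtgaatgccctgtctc
C1QB, chr4:136886201-136886450, minus strand: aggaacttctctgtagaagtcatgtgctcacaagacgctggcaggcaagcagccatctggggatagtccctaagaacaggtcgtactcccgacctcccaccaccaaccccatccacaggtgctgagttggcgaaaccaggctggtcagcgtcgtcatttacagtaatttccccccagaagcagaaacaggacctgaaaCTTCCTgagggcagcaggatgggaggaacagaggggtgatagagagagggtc
MRC1, chr2:14229164-14229413, plus strand: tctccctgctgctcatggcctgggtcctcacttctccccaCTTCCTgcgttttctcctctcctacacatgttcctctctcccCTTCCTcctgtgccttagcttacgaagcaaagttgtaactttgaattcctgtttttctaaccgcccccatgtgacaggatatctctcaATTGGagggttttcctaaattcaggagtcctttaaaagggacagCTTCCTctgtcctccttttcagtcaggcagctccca
In H2-EB1, CTAGCAAC began 94 bases before the start, and ATTGG lay at 59 bases and, as its reverse complement, at 35 bases. Of 32851 mouse promoters of the same length, 33.8% held ATTGG, 1.13% held CTAGCAAC and 0.405% held both. The reverse complement of AGGAAG lay 52 bases before the start of C1QB, and 210, 168 and 36 bases before that of MRC1. MRC1 also held ATTGG, 80 bases before its start. AGGAAG was found in 29.5% of all these promoters. The searched motifs do not overlap in these sequences, and a match of letters is not a binding site. No promoter was measured in these samples.

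Each value is a normalized count, that is, how often the probe of a gene was read, scaled by the authors to housekeeping genes. The value of 1 count ranged from 0.315 normalized counts in pan replicate 4 to 3.25 in pan replicate 1. Panel totals were 91955 to 133098 counts for vehicle, 64156 to 646446 for pan and 165828 to 525997 for C1. All C1 totals thus lay above every vehicle total, and of the pan totals only that of replicate 4 did. To tell a transcript from probe background, 10 panel genes of other organs, such as the liver genes CRP, MBL2 and KNG1, served as a measure of it. Their mean plus 2 SD in a sample, called the background limit here, ranged from 12.2 to 35.9 normalized counts.

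TYROBP, C1QA, C1QB, MRC1 and H2-EB1 were above the background limit in all 11 samples. CD163 was above it in 7, ITGB2 in 6 and CD86 in 3 of the 11 samples. TREM2 and H2-EA-PS were above it in 0. Thus 5 of the 10 genes were measured throughout, and these same 5 were the only ones whose log2 values averaged 5 or more, a level reached by 131 of the 248 panel genes. The keratins of the corneal epithelium (KRT12, KRT5 and KRT14) are not on the panel, so the labelled cell type could not be checked against its own markers. The narrowest margin was that of C1QB in vehicle replicate 2, at 36.9 normalized counts against a limit of 35.9, which is less than 1 count and level with the highest of the organ genes there.

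C1QA had 38.0, 71.4 and 65.8 normalized counts in the 3 vehicle samples. It had 42.2, 34.2, 31.9 and 50.03 in the 4 pan samples. In the C1 samples it had 55.0, 68.7, 62.9 and 81.7. Every C1 sample was above every pan sample, and the vehicle samples spread across both. The means were 58.4 ± 17.9 (SD, n = 3) for vehicle, 39.6 ± 8.26 (SD, n = 4) for pan and 67.1 ± 11.2 (SD, n = 4) for C1.

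C1QB, the partner chain in C1q, had 52.1, 36.9 and 51.0 normalized counts with vehicle. With pan it had 32.5, 17.1, 46.4 and 42.8, and with C1 81.2, 65.2, 51.1 and 58.8. The C1 samples were again all above the pan samples, and 3 of the 4 were above the highest vehicle sample. The means were 46.6 ± 8.47 (SD, n = 3), 34.7 ± 13.1 (SD, n = 4) and 64.1 ± 12.8 (SD, n = 4) for vehicle, pan and C1.

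TYROBP spread widely within vehicle, at 34.03, 57.6 and 82.2 normalized counts. It had 38.9, 22.0, 69.5 and 49.4 with pan, and 86.7, 60.3, 52.1 and 67.4 with C1. All 3 groups overlapped, and the lowest vehicle sample was below 3 of the 4 pan samples. The means were 58.0 ± 24.1 (SD, n = 3), 45.0 ± 19.9 (SD, n = 4) and 66.6 ± 14.8 (SD, n = 4).

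MRC1 had 32.03, 48.4 and 39.5 normalized counts with vehicle. Its values were 42.2, 17.1, 29.0 and 29.9 with pan and 50.9, 68.0, 34.6 and 57.0 with C1. Here 3 of the 4 C1 samples were above all pan samples and above all vehicle samples, and C1 replicate 3 lay among both groups. The means were 40.0 ± 8.20 (SD, n = 3), 29.5 ± 10.3 (SD, n = 4) and 52.6 ± 13.97 (SD, n = 4).

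H2-EB1 had 174, 141 and 155 normalized counts with vehicle, a narrow range. It had 94.1, 70.8, 174 and 104 with pan, so that 3 of the 4 pan samples were below all vehicle samples and replicate 3 was level with the highest of them. With C1 it had 241, 140, 156 and 207. The means were 156 ± 16.9 (SD, n = 3), 111 ± 44.4 (SD, n = 4) and 186 ± 46.3 (SD, n = 4).

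The other 5 genes lay at or near background. CD163 spanned 14.01 to 29.6 normalized counts in vehicle, 13.0 to 22.0 in pan and 16.5 to 37.2 in C1 samples. ITGB2 ranged from 11.5 to 21.4, from 3.25 to 29.3 and from 13.8 to 30.2, and its lowest value was a single count in pan replicate 1. CD86 ranged from 16.02 to 18.4, from 2.90 to 17.1 and from 6.88 to 22.0. TREM2 was never above 6.48 normalized counts, and 7 of its 11 values were of 3 counts or fewer, the limit that a count of 0 allows.

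H2-EA-PS had 14.01, 18.4 and 9.87 normalized counts in the vehicle samples, which were 7, 8 and 6 counts. It had 3.25, 4.88, 2.90 and 5.66 in the pan samples and 2.75, 6.31, 5.68 and 6.05 in the C1 samples. All vehicle samples were above all 8 treated samples, yet each of the 11 values was under that sample's background limit.

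**Figure D1:**
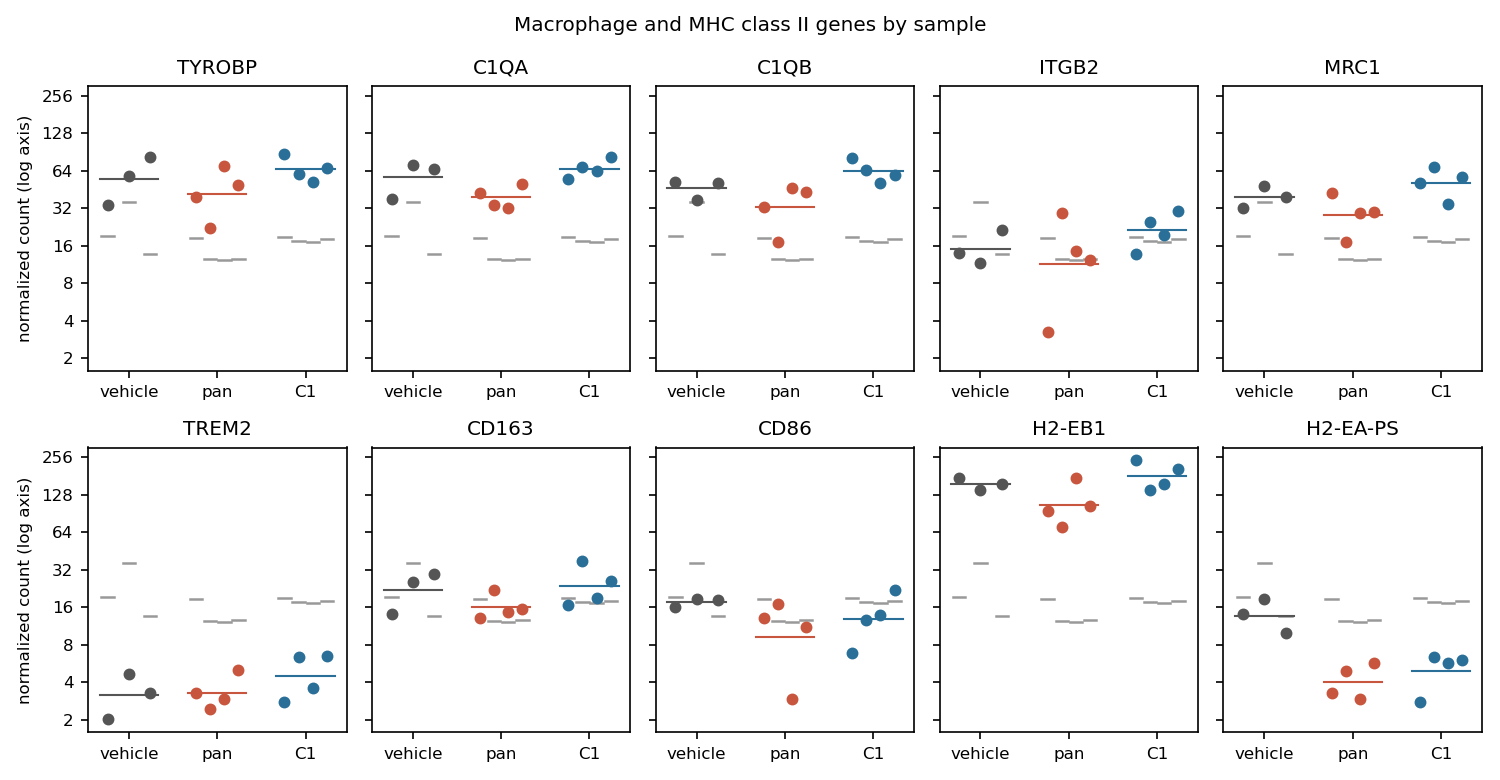
Normalized count (log axis) of each of the 10 genes in each sample, with vehicle in grey, pan in red and C1 in blue. Points are samples in order of replicate number, long bars are means of the log2 values and the short grey bars are each sample's background limit, which TREM2 and H2-EA-PS never pass and TYROBP, C1QA, C1QB, MRC1 and H2-EB1 always pass.

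The first question was whether macrophage transcripts were more abundant after pan than after vehicle. None of the 10 genes was called higher. Of the 5 measured throughout, all had a lower mean with pan, by log2 fold changes from -0.57 (H2-EB1) to -0.39 (TYROBP), and none passed the test (limma, adjusted p from 0.517 to 0.778). Without pan replicate 2, the sample lowest for 4 of them, TYROBP differed by -0.09, C1QB by -0.20 and MRC1 by -0.25, and without vehicle replicate 3 TYROBP differed by -0.10. TYROBP and C1QA differed by -0.73 and -0.82 without vehicle replicate 1. Over all samples, C1QA differed by -0.53 (standard error 0.30, 95% interval -1.23 to 0.17), C1QB by -0.51 (standard error 0.38) and MRC1 by -0.49 (standard error 0.34). In bulk tissue, fewer cells of a type and less RNA per cell cannot be told apart.

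For the 5 genes above background in every sample, the upper end of the 95% interval was below a log2 fold change of 1, a doubling. The upper end was 0.17 for C1QA and for H2-EB1, 0.29 for MRC1, 0.36 for C1QB and 0.65 for TYROBP. With background subtracted it was below a doubling for 4 of the 5 (0.27 to 0.82) and 1.03 for TYROBP. The other genes lay too near background for their intervals to bound a change of the transcript. These intervals treat the spread between samples as the only error, and nothing says how many mice a sample holds.

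H2-EA-PS was the only one of the 10 genes called, lower in the pan samples at a log2 fold change of -1.77 (standard error 0.34, 95% interval -2.55 to -0.99, limma adjusted p = 0.0401). Across the panel, 5 of 248 genes (2.02%) passed the same adjusted p of 0.05. By exact permutation its p was the lowest that 3 samples against 4 allow (two-sided, p = 0.0571). Summed over samples, 22 counts with pan stood against 21 with vehicle, which after scaling is a ratio of 0.381 (95% interval 0.200 to 0.728, counting error only). Of these 22 counts, 18 came from pan replicate 4, so the ratio rests mostly on that sample. The call was lost in each of the 7 fits that left out 1 sample, with limma adjusted p from 0.0583 to 0.149, and with the background subtracted (-1.18, adjusted p = 0.773).

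Pan samples did not overlap vehicle samples from above for any of the 10 genes, against 2.42% of the panel. From below, H2-EA-PS was the 1 gene of 10, against 8.47% of the panel. The median log2 fold change was -0.50 over the 10 genes, -0.20 over the panel and -0.07 over the 131 panel genes whose log2 values averaged 5 or more. It was -0.76 over the 10 genes of other organs, of which MBL2 was called lower. Background thus also read lower with pan. With it subtracted, the 5 genes measured throughout had log2 fold changes from -0.56 to -0.30, CD163 had -0.09 and ITGB2 0.57.

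With C1 against vehicle, all 5 genes measured throughout had a higher mean. The log2 fold changes were 0.24 for C1QA (standard error 0.26), 0.45 for C1QB (standard error 0.21), 0.27 for TYROBP (standard error 0.32), 0.38 for MRC1 (standard error 0.26) and 0.22 for H2-EB1 (standard error 0.22). None passed the test (limma, adjusted p from 0.452 to 0.791), and none of the 248 genes did (0%), with 26 at an unadjusted p under 0.05. The groups overlapped for every one of these 5 genes. Wholly above vehicle lay 0 of the 10 genes, which is near the panel's share of 6.05%. Treatment and the second age label cannot be told apart here, since all C1 samples carry the older label and all vehicle samples the younger. With that label as a covariate, the signs of TYROBP, C1QA and C1QB turned, as given further on.

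With C1, the upper end of the 95% interval was below a doubling for 3 of the 5 genes, H2-EB1 (0.74), C1QA (0.85) and C1QB (0.96). MRC1 reached 1.003 and TYROBP 1.04 on the log2 scale. With background subtracted it was below a doubling for H2-EB1 alone of the 5 (0.82), and 1.03 to 1.45 for the others. For each of these 5 genes the upper end was higher with C1 than with pan. Without vehicle replicate 1, the sample with the lowest TYROBP, C1QA and MRC1 of its group, the log2 fold changes of TYROBP and C1QA were -0.07 and -0.05.

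H2-EA-PS was lower with C1 too, at -1.47 on the log2 scale (standard error 0.36, limma adjusted p = 0.211), and did not pass the test. It was the 1 gene of 10 wholly below vehicle, against 4.03% of the panel (exact permutation test, two-sided, p = 0.0571, the smallest possible). The scaled ratio of its summed counts was 0.412 (95% interval 0.234 to 0.744, counting error only). The same vehicle samples served both comparisons. CD86, the other gene with a lower mean, differed by -0.45 (standard error 0.37), with 3 of 4 C1 samples below the vehicle samples.

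**Figure D2:**
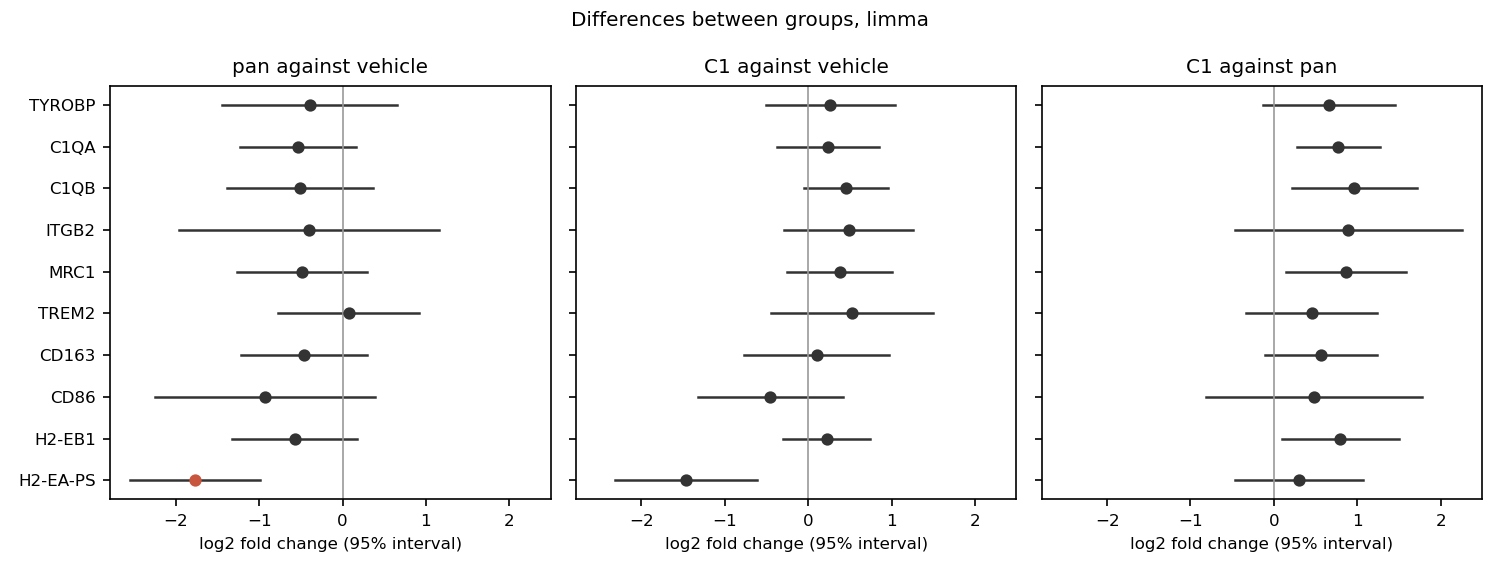
Log2 fold change of each of the 10 genes in the 3 comparisons, with bars for limma's 95% interval; the vertical line is no difference. H2-EA-PS with pan, in red, is the only value with an adjusted p under 0.05, and in C1 against pan all 10 points are to the right of the line.

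The 2 compounds were given at the same dose and for the same time, and could be compared directly because both tables hold the same vehicle values and so share a normalization. All 10 genes had a higher mean with C1 than with pan. The log2 fold change of C1QA was 0.77 (standard error 0.22, 95% interval 0.27 to 1.27) and that of C1QB 0.96 (standard error 0.33, 0.21 to 1.71), which are 1.71-fold and 1.95-fold. MRC1 differed by 0.86 (standard error 0.32, 0.14 to 1.59), H2-EB1 by 0.79 (standard error 0.31, 0.09 to 1.49) and TYROBP by 0.66 (standard error 0.35, -0.13 to 1.46). None passed after adjustment over the panel (limma, adjusted p from 0.256 to 0.365), where 1 of 248 genes did (0.403%).

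At an unadjusted p under 0.05, C1QA, C1QB, MRC1 and H2-EB1 were higher with C1, 4 of 10 genes against 13.7% of the panel. The genes of other organs, which measure background, gave the same count, 4 of 10, all higher with C1. The count is thus not particular to the macrophage genes. C1QA and C1QB, 2 of the 10, lay wholly above the pan samples, against 7.66% of the panel. For each of these 2, p was the lowest that 4 samples against 4 allow by exact permutation (two-sided, p = 0.0286). The same exact test gave p = 0.0571 for MRC1, p = 0.0857 for H2-EB1 and p = 0.143 for TYROBP.

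The median log2 fold change between C1 and pan was 0.72 over the 10 genes, 0.79 over the 5 measured throughout, 0.23 over the panel and 0.13 over the 131 better measured panel genes. It was 0.76 over the 10 genes of other organs, all 10 of which had a higher mean with C1. Their mean level per sample was 4.93 to 7.68 normalized counts with pan and 8.39 to 12.2 with C1, so background and macrophage genes differed in the same direction and by a similar factor. With that background subtracted in each sample, the 5 genes measured throughout differed by 0.69 (TYROBP) to 1.06 (C1QB). Pan replicates 1 to 3 also had lower totals and the younger second age label than all C1 samples. When the log2 total was added to the fit, the 5 log2 fold changes were 0.58 (C1QA) to 0.92 (MRC1). With the second age label as a covariate, which rests on pan replicate 4 alone, they were 0.41 for C1QA and TYROBP, 0.56 for C1QB, 0.77 for MRC1 and 0.81 for H2-EB1, with standard errors of 0.37 to 0.61.

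Pan replicate 2 was the lowest sample of all 11 for TYROBP, C1QB and H2-EB1, and for MRC1. Summed over TYROBP, C1QA, C1QB and MRC1, it had 90.3 normalized counts, where the other pan samples had 156 to 177, the vehicle samples 156 to 238 and the C1 samples 201 to 274. Pan replicate 4, which carries the older age label and has the highest total of the series, had a sum of 172, inside the range of the pan samples and below all C1 samples. C1QA and C1QB were at 50.03 and 42.8 in this sample, below the lowest C1 values of 55.0 and 51.1.

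Across the 11 samples the genes measured throughout varied together to unequal degrees. Pearson's r of log2 values was highest between C1QB and H2-EB1 (0.88) and between TYROBP and C1QB (0.80). It was lowest between C1QA and H2-EB1 (0.40). C1QA and C1QB, whose products join in one molecule, had an r of 0.50, which was -0.09 once the group means were removed. These values describe 11 samples that share a normalization and differ in depth.

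PTGER4 encodes EP4, the prostaglandin E2 receptor that links the question to macrophages, since they carry it. The paper also finds EP4 in the corneal epithelium itself, so its transcript here need not come from macrophages. A correlation with macrophage genes therefore cannot decide whether macrophages with EP4 entered. PTGER4 was higher by 0.74 on the log2 scale with pan (limma adjusted p = 0.239) and by 0.85 with C1 (limma adjusted p = 0.211). It was thus called in neither comparison here, whereas the paper reports its mRNA as raised by both compounds. No relation of the PTGER4 level to that of the macrophage genes passed a test, and the sign of the correlation changed with how it was computed. Between PTGER4 and the mean log2 value of TYROBP, C1QA, C1QB and MRC1, Pearson's r was -0.10 (permutation p = 0.788) and Spearman's rho 0.05 (permutation p = 0.904) over 11 samples. Leaving out the 2 samples farthest from the median of the macrophage value gave r = 0.26, and removing the group means gave r = -0.38. A second relation, between the macrophage value and the log2 total count, had r = 0.41 (permutation p = 0.210, adjusted over both relations 0.419) and rho = 0.51 (permutation p = 0.114, adjusted 0.227). It gave r = 0.45 without the 2 farthest samples and r = 0.14 within groups.

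**Figure D3:**
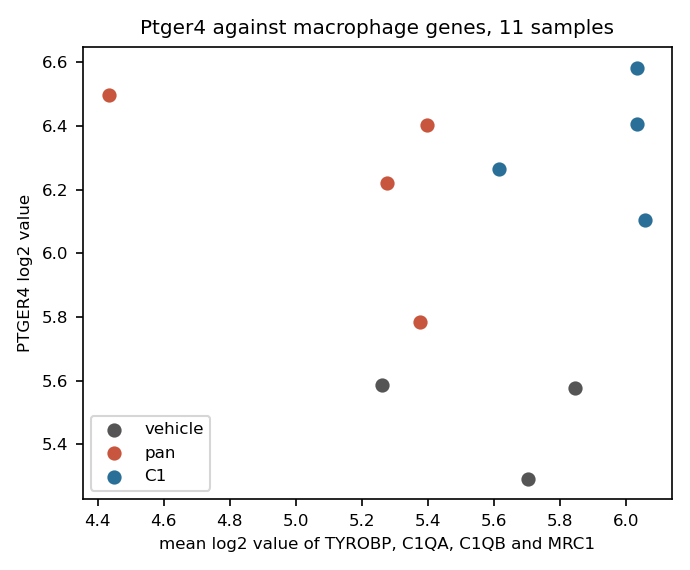
PTGER4 (log2 normalized count) against the mean log2 value of TYROBP, C1QA, C1QB and MRC1, 1 point per sample, coloured by group. All 8 treated samples lie above the 3 vehicle samples on the vertical axis, while on the horizontal axis the pan samples lie within or left of the vehicle range and the C1 samples within or right of it. Of the panel, 2.42% lay wholly above vehicle with pan and 6.05% with C1, and PTGER4 was called in neither comparison.

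The panel holds 16 other genes of macrophages and antigen-presenting cells. None was called in any of the 3 comparisons, with 2 of 16 at an unadjusted p under 0.05 in each, against 12.5% of the panel with pan, 10.5% with C1 and 15.3% between C1 and pan. Their median log2 fold change was -0.24 with pan, -0.01 with C1 and 0.29 between C1 and pan. C3AR1, the receptor of complement fragment C3a, is named here after its values were seen. It passed the background limit in all 11 samples, as did IRF5, LTB4R1, LY96 and ARG1. TLR7 had a larger change with pan (-2.48, limma adjusted p = 0.0912) but passed the limit in only 2 samples. C3AR1 had 36.04 to 64.1 normalized counts with vehicle, 17.1 to 29.2 with pan and 19.1 to 41.9 with C1. Pan thus lay wholly below vehicle, as did 8.47% of the panel, and C1 overlapped it. Its log2 fold change was -1.18 with pan (standard error 0.29, limma adjusted p = 0.0955), -0.95 with C1 (standard error 0.32, adjusted p = 0.418) and 0.22 between C1 and pan (standard error 0.29). Of the 16 genes, 4 had log2 values that averaged 5 or more. These 4 spanned 190 (IRF5 with C1) to 4392 (ARG1 with vehicle) normalized counts, above every value of TYROBP, C1QA, C1QB and MRC1. Which cells their RNA came from was not tested. With pan, LY96, which assists the endotoxin receptor, differed by -0.14 (standard error 0.21), and ARG1, arginase 1, by -0.07 (standard error 0.24). With C1, LTB4R1, a leukotriene B4 receptor, differed by 0.24 (standard error 0.15) and ARG1 by 0.17 (standard error 0.13). Between C1 and pan, ARG1 differed by 0.24 (standard error 0.18) and IRF5, a transcription factor of inflammatory macrophages, by -0.19 (standard error 0.18).

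Signals that attract monocytes or sustain macrophages were also on the panel. None of these 8 genes was called either, with median log2 fold changes of -0.58 with pan, -0.37 with C1 and 0.27 between them. At an unadjusted p under 0.05 were 3 of 8 with pan, 2 of 8 with C1 and 1 of 8 between C1 and pan, all lower. The panel shares were 12.5%, 10.5% and 15.3%. Only CSF1, the growth factor of macrophages, had log2 values that averaged 5 or more, and it differed by -0.07 with pan (standard error 0.24), by -0.17 with C1 (standard error 0.18) and by -0.10 between C1 and pan (standard error 0.20).

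**Figure D4:**
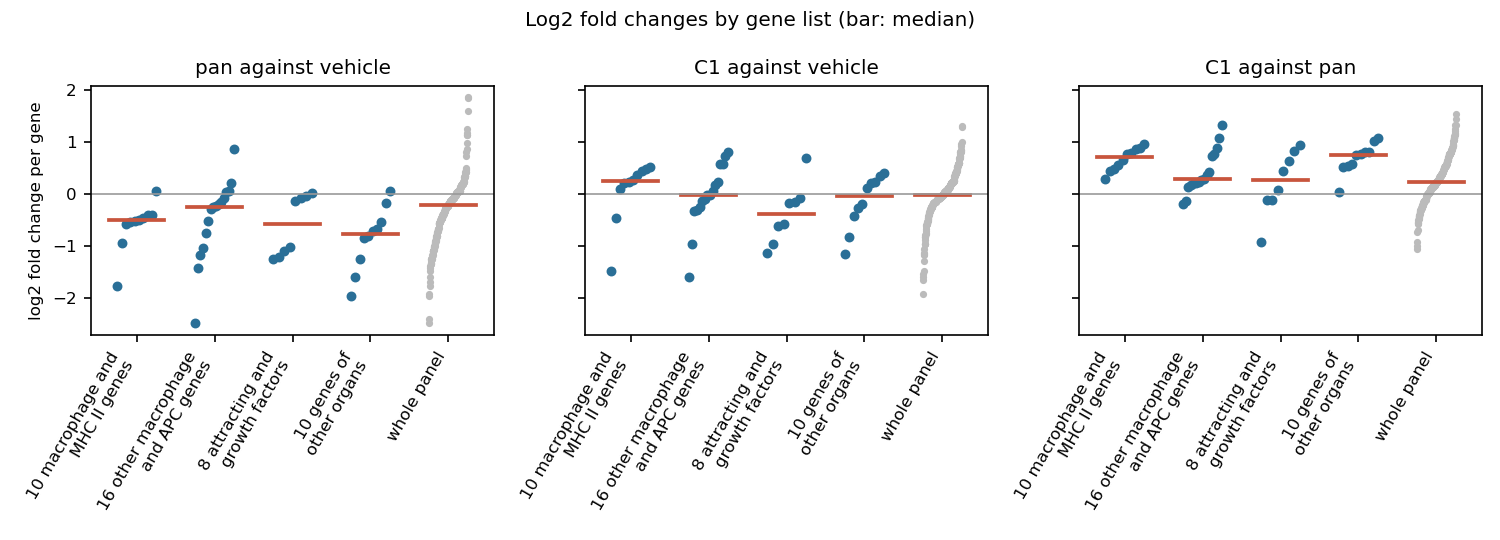
Log2 fold change of each gene, by list, in the 3 comparisons (APC, antigen-presenting cell). Points are genes and red bars are medians. In C1 against pan, the 10 macrophage and class II genes (median 0.72) and the 10 genes of other organs (median 0.76) both sit above the whole panel (median 0.23).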

How the data were processed

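NanoString measurements of each treatment and its vehicle were deposited in a table per treatment, 2 in all, as log2 normalized counts. According to the methods, the authors scaled each lane in ROSALIND to the geometric mean of its housekeeping probes, and kept the samples that passed quality control. The tables also hold the authors' mean level, difference, p-value and padj per gene, which were not used. The normalized counts, with the log2 undone, were whole multiples (within 0.01) of 1 step per sample, taken as 1 count. A value of 1 count is the lowest in any sample, so counts of 0 may have been set to 1.

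Each pair of groups was fitted on the log2 values of 248 genes in R 4.3.3 by lmFit and eBayes of limma 3.58.1, with Benjamini-Hochberg adjustment and a threshold of 0.05. Intervals are at 95%. Exact permutation tests and correlations (100000 permutations) used Python 3.11.15, numpy 2.4.6 and scipy 1.17.1, with pandas 2.3.3 and matplotlib 3.10.9. These fits were first tested on simulated data. Intervals of count ratios and the limit of 3 counts cover counting error only. All 10 genes are reported in every comparison. From the other lists, the genes called are named, or else the 2 with the largest change among those whose log2 values average 5 or more. As a description, the 5 genes most like the macrophage mean are named too. The genes and lists were chosen with earlier results of these data known. Replicate numbers did not pair the samples. Alternatives were no moderation, a mean-dependent or robust prior, a filter at a mean log2 value of 5, a pseudocount of 20, median centring, background subtraction with a floor of 1, all 3 groups in one fit, the log2 total count or second age label as a covariate, the replicate number as a block, voom weights and leaving out each sample.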

Additional observations from a re-analysis of the deposited data

Results flagged for a closer look

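In C1 replicate 1 the log2 value of H2-EA-PS was 1.46, apart from the other C1 samples, which had 2.50 to 2.66. The gap was 0.872 of the range of the group, above the critical value for 4 samples. The value was of 2 counts and under the background limit. Chance flags about 1 in 20 groups, and 20 groups of samples were examined.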

How the results depend on the processing

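Outside the leave-one-out fits, 91 recomputed counts and medians stayed near the main value and 23 moved. With pan, 0 of the 10 genes were called without moderation, with a mean-dependent prior, with only genes of a mean log2 value of 5 or more, with the pseudocount, after background subtraction and with voom weights. The cause was not tested, except that the filter leaves H2-EA-PS untested. The limma adjusted p of H2-EA-PS was then 0.196 (no moderation), 0.125 (mean-dependent prior), 0.207 (pseudocount), 0.773 (background) and 0.0957 (voom), in a range of 0.0175 to 0.773 over all fits. Panel genes called with pan were 2 (no moderation, pseudocount, background), 1 (filter), 8 (total as covariate) and 9 (age label). With C1 they were 2 (mean-dependent prior) and 4 (filter, 131 genes). Between C1 and pan they were 0 with both other priors, median centring, background subtraction, all 3 groups, either covariate and voom, and the median over the 10 genes was 0.38 with the pseudocount.

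Signs turned for log2 fold changes that were not called. With pan, ITGB2 was 0.57 (background), and TREM2 was -0.0046 (total), -0.13 (age label) and -0.13 (replicate block). With C1, CD163 was -0.0015 (total), and with the age label, estimated through pan replicate 4 alone, TYROBP was -0.074, C1QA -0.25, C1QB -0.082 and TREM2 -0.30. Between C1 and pan, CD86 was -0.16 (background), H2-EA-PS -0.064 (total) and -0.20 (age label), and TREM2 -0.17 (age label).

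Leaving out single samples gave 0 to 0 of the 10 genes called in each comparison. Panel genes called were 1 to 7 with pan, 0 to 0 with C1 and 0 to 1 between C1 and pan. With pan there was 1 without vehicle replicate 2 or 3, 2 without pan replicate 1 or 4, and 3 without pan replicate 2 or 3. The 1 gene between C1 and pan was lost without pan replicate 1 or 3 or any C1 sample. Medians over the 10 genes were -0.69 to -0.43 with pan, 0.08 to 0.36 with C1 and 0.64 to 0.78 between them. Signs turned for ITGB2 (-0.86 to 0.20, without pan replicate 1) and TREM2 (-0.25 to 0.35, without vehicle replicate 1 or pan replicate 4) with pan, for C1QA (-0.046 to 0.41), TYROBP (-0.073 to 0.56) and CD163 (-0.22 to 0.32) with C1, each without vehicle replicate 1 and the last also without C1 replicate 2, and for CD86 (-0.076 to 0.78, without pan replicate 3) between them.

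Same-numbered samples correlated at 0.198, 0.058 and 0.312 between pan and vehicle, at -0.054 to 0.043 between C1 and vehicle, and at 0.513, -0.016, -0.053 and 0.570 between C1 and pan, so the numbers were not taken to pair samples. Samples matched their own number best in 4 of 6, 0 of 6 and 3 of 8 cases. The replicate block left 1, 0 and 0 of the 10 genes and 5, 0 and 1 panel genes called. TREM2 after background subtraction, and H2-EA-PS between C1 and pan, were at the floor in all samples and gave no value. In pan replicate 1, ITGB2, TREM2 and H2-EA-PS were at 1 count, and in pan replicate 3 CD86, TREM2 and H2-EA-PS were.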

Other observations

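Markers of other leukocytes were at background. Of 7 T cell genes, 1 of 21 values in vehicle samples and 0 of 28 in each treated group passed the background limit. IFNG, the T cell cytokine, was called lower with pan (log2 fold change -2.40, limma adjusted p = 0.00246) at that level. The neutrophil receptors CXCR1 and CXCR2 passed the limit in 1 of 6 vehicle values and 0 of 16 treated ones, and the 3 eosinophil and basophil genes in 0 of 33. No gene of these 2 lists was called.

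Over 11 samples and 126 other genes whose log2 values averaged 5 or more, those most like the mean of TYROBP, C1QA, C1QB and MRC1 were CCL21A (Pearson's r 0.81), PRKCA (0.66), TGFB3 (0.65), IL15 (0.64) and MMP3 (0.63). After the group means were removed, r was 0.66, 0.80, 0.46, -0.37 and 0.27. CCL21A, a chemokine of lymphatic vessels, has near-identical copies in the mouse genome, so its probe may count more than one gene. These correlations are a description over samples that share a normalization.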
